A study of Homo sapiens with 48 samples.

Results

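The genes described here are 10 amino acid transporters of the human cell membrane: SLC7A11, SLC3A2, SLC7A5, SLC7A1, SLC1A5, SLC1A4, SLC38A1, SLC38A2, SLC6A9 and SLC43A1. They were picked by gene symbol from the 61815 genes of a count table of prostate cancer cells in culture, and all 10 of 10 were among the 20009 genes with enough counts to be tested. The table holds 48 RNA-Seq libraries in 16 groups of 3 biological replicates. The cells were 22Rv1, a castration-resistant prostate cancer line, and 5 derivatives, and the questions the comparisons address are how inhibition of the Mediator kinases CDK8 and CDK19, loss of their kinase activity, and androgen depletion bear on gene expression.

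Rv1-WT is parental 22Rv1, and Rv1-Luc is a derivative that carries firefly luciferase delivered by lentivirus. The other 4 lines started from 22Rv1 cells in which CDK8 and CDK19 had both been knocked out with CRISPR/Cas9 (dKO), and 1 kinase was then put back by lentiviral transduction: wild-type CDK8 in dKO-8, CDK8 with the inactivating mutation D173A in dKO-8M, wild-type CDK19 in dKO-19, and CDK19 with D173A in dKO-19M. By the study's account, dKO-8 and dKO-8M were made from dKO cells that already carried a lentiviral vector without insert. The lines dKO-19 and dKO-19M were made from dKO cells directly. Each derivative comes from its own transduction, so a difference between lines can be of the transgene or of the cells that took it up. Between the CDK8 and CDK19 lines it can also be of the earlier vector. All cells received 500 nM SNX631, an inhibitor of both kinases, or vehicle (0.1% DMSO) for 72 hours. Rv1-WT and Rv1-Luc were grown either with fetal bovine serum (FBS) or, after a passage in it, with serum stripped of androgen by charcoal (CSS). The 4 dKO lines were grown in FBS alone, each with SNX631 or with vehicle.

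Amino acid transporters supply cells with the building blocks of protein, nucleotides and glutathione. SLC7A11 (xCT) takes up cystine in exchange for glutamate and SLC7A5 (LAT1) takes up large neutral amino acids such as leucine, and both work only as partners of the heavy chain SLC3A2 (4F2hc), which brings them to the membrane. Many of these genes are known targets of ATF4, a transcription factor of the amino acid response, and SLC7A11 is also a target of NRF2, which answers oxidative stress. In prostate, SLC43A1 (LAT3) is a leucine transporter whose gene has been tied to androgen signaling. CDK8 and CDK19 are alternative kinases of the Mediator complex, which links transcription factors to RNA polymerase II.

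The Rv1-WT libraries were the shallowest, at 13.2 to 18.2 M counts, and those of the 5 derivatives held 19.3 to 31.5 M. Prostate luminal markers were present as the label says, and all 7 of 7 were counted in every line, with HOXB13 at 173 to 317 CPM (counts scaled to library size). CDK8 RNA was 26.8 CPM in Rv1-WT, 68.6 CPM in dKO-8 and 123 CPM in dKO-8M, and CDK19 RNA was 149 CPM in Rv1-WT, 510.0 CPM in dKO-19 and 332 CPM in dKO-19M (means under vehicle in FBS). RNA and protein went apart for CDK8. By Western blot the study found less CDK8 protein in dKO-8 than in parental cells, and much more CDK19 protein in dKO-19 and dKO-19M. Transcripts of a knocked-out gene were still counted, with CDK19 at 103 CPM in dKO-8 and CDK8 at 27.7 CPM in dKO-19, so RNA does not check the knockout. Among all 48 pairs of replicates, the chi-square per degree of freedom over genes was lowest at 1.29, so no pair looked like a library deposited again. It was highest where replicate 1 of dKO-19M under vehicle was set against replicates 2 and 3 (19.4 and 18.8), and next where replicate 1 of Rv1-Luc in FBS under vehicle was set against replicate 2 (10.6). Where leaving out either library changed a call or moved a printed value by over 1.5 times, the value without it is given as well. In bulk RNA, fewer cells of a kind and less RNA per cell cannot be told apart.

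By the GENCODE annotation of GRCh38, the genes lie apart on 8 chromosomes, apart from SLC38A1 at chr12:46183063-46270017 and SLC38A2 at chr12:46358189-46372867, which are close neighbours on the minus strand, and SLC3A2 and SLC43A1, which share chromosome 11 at a distance. SLC7A11 lies at chr4:138164097-138242349 on the minus strand, SLC3A2 at chr11:62856102-62888875 on the plus strand and SLC7A5 at chr16:87830023-87869488 on the minus strand. SLC7A1 is at chr13:29509410-29595688, SLC1A5 at chr19:46774883-46788594, SLC6A9 at chr1:43991500-44031467 and SLC43A1 at chr11:57484534-57515786, all on the minus strand, and SLC1A4 is at chr2:64988477-65023865 on the plus strand. Exons of genes on the opposite strand overlap those of SLC7A11, SLC7A5, SLC1A5 and SLC6A9, and the strand setting of the counting is not given in the sources used here, so a share of the counts of these 4 could come from the other strand. For SLC7A11 the antisense gene SLC7A11-AS1 held 0 to 7 counts per library.

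Because several of these genes were called in the same comparisons, their promoters were searched on both strands for the cores of elements through which ATF4, NRF2 and MYC are known to act. RefSeq promoter windows of GRCh38.p14, 300 bases each, were found for 9 of the 10 genes (16 windows in all; SLC7A11 had none). TGATGCAA, the core of the C/EBP-ATF response element, was in 2 of the 16 windows (SLC1A5 and SLC1A4), against 0.866% of all 35116 human windows. With its 6th base left free (TGATGNAA, which includes the former), it was in 5 of 16, adding SLC3A2, SLC7A1 and SLC38A1, against 3.62% of all windows. TGACNNNGC, the core of the antioxidant response element, was in 4 of 16 (SLC3A2, SLC7A5, SLC7A1 and SLC1A5), against 13.3% of all windows. The E-box CACGTG was in 3 of 16 (SLC7A5, SLC1A5 and SLC43A1), against 7.26%. A match describes the letters of a window and does not show that a factor binds there. The 5 stretches printed here, 5′ to 3′ on the strand of the gene, were chosen because they show the matches of genes called lower with SNX631 in dKO-8 and dKO-19 (SLC1A5, SLC1A4, SLC3A2 and SLC7A5) beside that of a gene called in neither (SLC38A1), and the capitals mark the match. They lie at chr19:46784894-46784971 (minus strand), chr2:64989332-64989408 (plus), chr11:62881602-62881680 (plus), chr16:87869498-87869569 (minus) and chr12:46266507-46266580 (minus).
SLC1A5: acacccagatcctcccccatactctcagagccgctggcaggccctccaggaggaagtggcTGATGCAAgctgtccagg
SLC1A4: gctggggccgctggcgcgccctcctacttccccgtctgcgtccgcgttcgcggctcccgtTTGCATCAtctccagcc
SLC3A2: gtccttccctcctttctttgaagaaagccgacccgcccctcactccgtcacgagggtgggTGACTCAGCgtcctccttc
SLC7A5: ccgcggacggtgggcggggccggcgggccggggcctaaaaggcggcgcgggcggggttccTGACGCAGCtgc
SLC38A1: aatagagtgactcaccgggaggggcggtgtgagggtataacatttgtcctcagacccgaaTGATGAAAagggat
The capitals mark TGATGNAA in SLC1A5, SLC1A4 and SLC38A1, and TGACNNNGC, a different element, in SLC3A2 and SLC7A5. The TGATGNAA match of SLC3A2 is not printed. In SLC1A4 the match is on the opposite strand and is therefore read as TTGCATCA.

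Levels are given as CPM scaled with TMM factors (trimmed mean of M values), and between genes per kilobase of exon. In Rv1-WT in FBS under vehicle the order per kilobase was SLC1A5 at 120.3, SLC38A2 at 109, SLC7A5 at 104, SLC3A2 at 54.8, SLC38A1 at 47.6, SLC7A1 at 38.9, SLC7A11 at 19.0, SLC1A4 at 15.1, SLC6A9 at 10.8 and SLC43A1 at 9.17 CPM per kb. The glutamine transporter SLC1A5 (ASCT2), the sodium-coupled neutral transporter SLC38A2 (SNAT2) and SLC7A5 thus had the most RNA per length, and the leucine transporter SLC43A1 and the glycine transporter SLC6A9 (GlyT1) the least. Across the 16 groups, SLC7A11 varied most, with an 11.1-fold range of group means, followed by SLC6A9 (6.02-fold) and SLC1A4 (4.71-fold), the alanine and serine transporter ASCT1. SLC1A5 (3.45-fold), SLC7A5 (3.37-fold), SLC3A2 (3.19-fold) and the arginine and lysine transporter SLC7A1 (CAT1, 3.07-fold) varied less. SLC38A2 (2.09-fold), SLC43A1 (2.03-fold) and SLC38A1 (SNAT1, 1.86-fold) varied least.

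SLC7A11 was highest in Rv1-WT in CSS under vehicle, at 404 ± 35.8 CPM (SD, n = 3), then in Rv1-WT in CSS with SNX631 (250.4 CPM), Rv1-WT in FBS under vehicle (183 CPM), dKO-8 under vehicle (157 CPM), Rv1-WT in FBS with SNX631 (129 CPM) and dKO-19 under vehicle (123 CPM). In the middle of the order stood Rv1-Luc in CSS under vehicle (98.0 CPM), dKO-19M under vehicle (93.3 CPM), dKO-8M under vehicle (91.6 CPM), dKO-19M with SNX631 (81.0 CPM), Rv1-Luc in FBS under vehicle (80.2 CPM), dKO-8 with SNX631 (77.2 CPM) and dKO-8M with SNX631 (73.0 CPM). The lowest were dKO-19 with SNX631 (53.6 CPM) and Rv1-Luc with SNX631 in CSS (37.5 CPM) and in FBS (36.2 CPM). Of the 15 neighbouring pairs in this order, 6 had overlapping replicates, all of them in the middle, at the transition between Rv1-WT with SNX631 and dKO-19, or at the bottom. The other genes had between 7 (SLC1A5) and 13 (SLC38A1) overlapping neighbours of 15, so the order of their groups was less resolved. The highest mean of SLC7A5 was in dKO-8 under vehicle (1046 CPM), while SLC7A11, SLC3A2, SLC7A1, SLC1A5, SLC1A4 and SLC6A9 peaked in Rv1-WT in CSS.

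**Figure D1:**
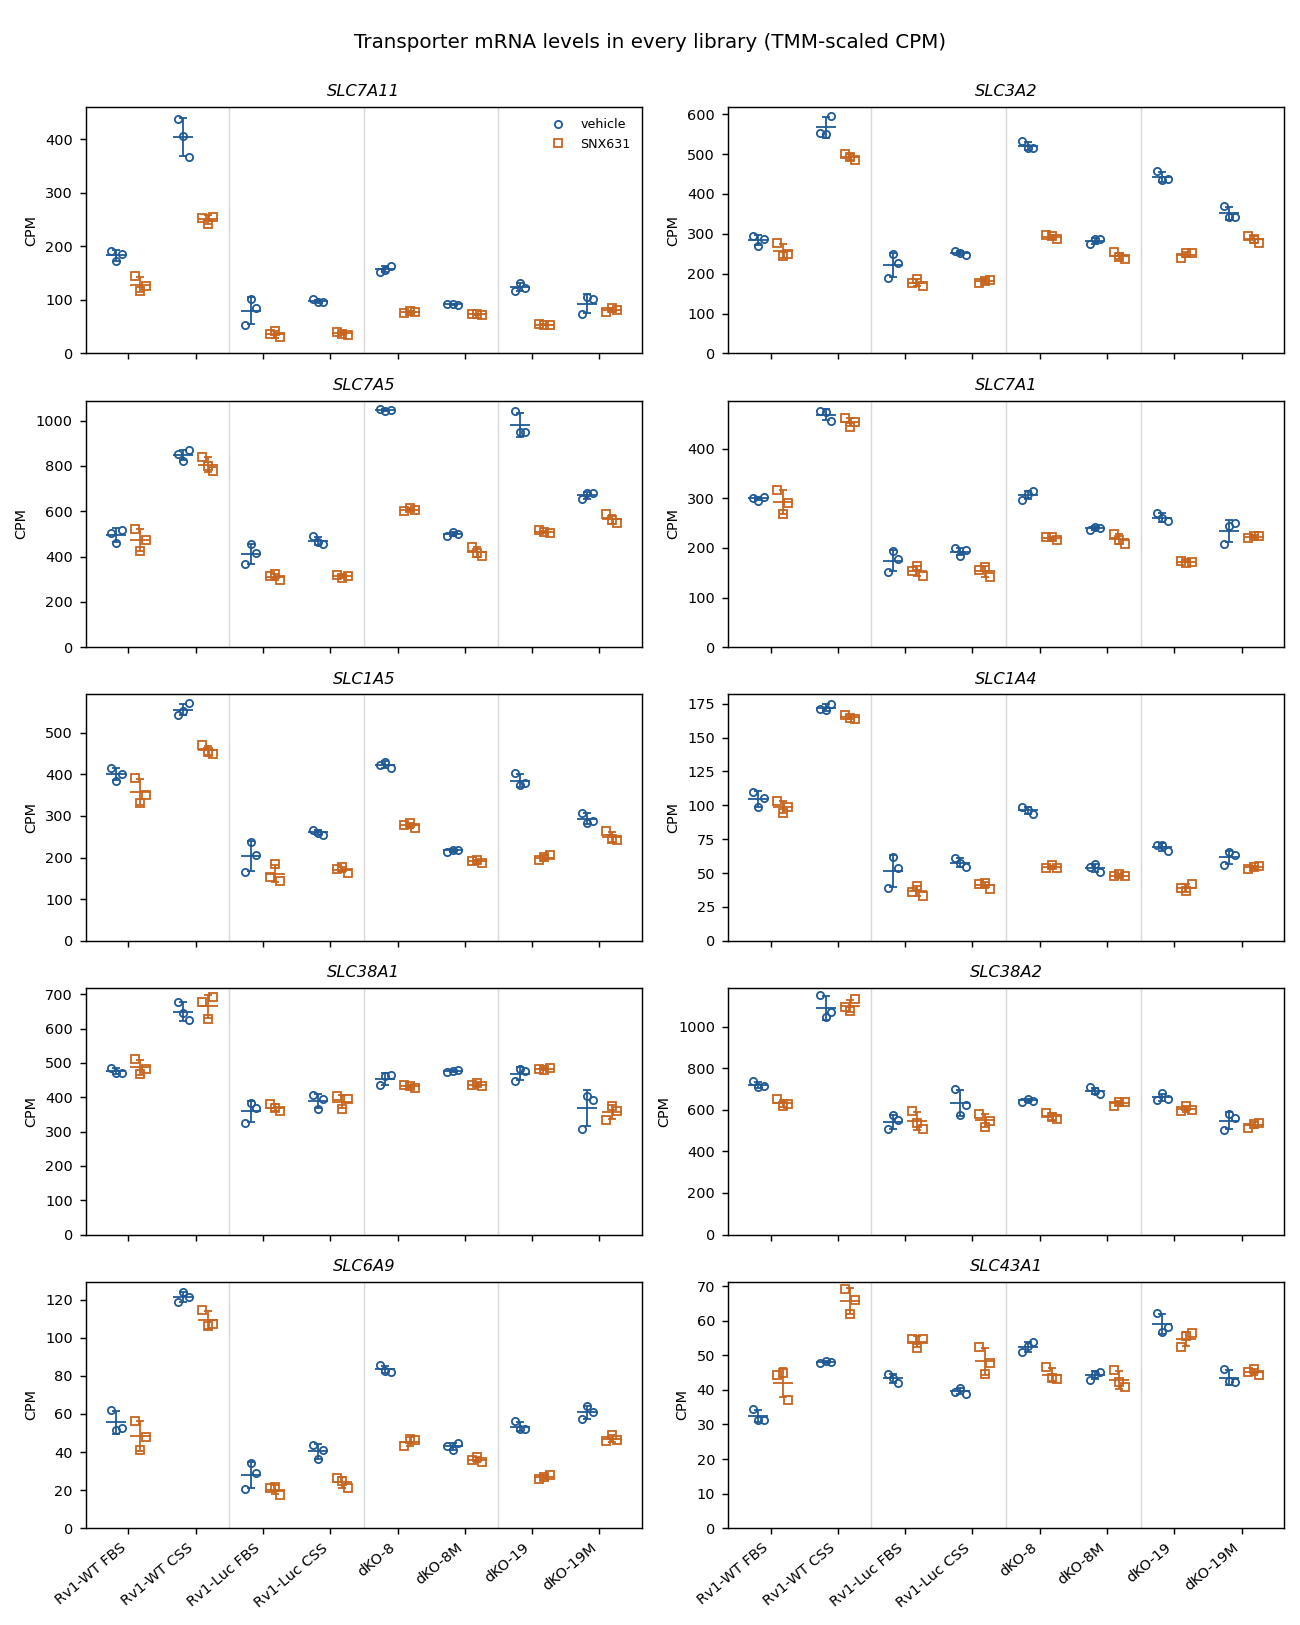
Level of each of the 10 transporter genes in all 16 groups, as TMM-scaled CPM on axes that start at 0, with an open symbol for each of the 3 libraries of a group, a dash at the group mean and bars of 1 SD. SLC7A11 spans the widest range, from 36.2 CPM in Rv1-Luc with SNX631 in FBS to 404 CPM in Rv1-WT in CSS under vehicle, and SLC38A1 the narrowest.

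The first question was how SNX631 acted on the transporters in cells that carry a single active Mediator kinase. In dKO-19, 7 of the 10 genes fell by over 1.5-fold at a false discovery rate (FDR) under 0.01, the limits of a call throughout, against 1.53% of all genes tested called lower. In dKO-8, 6 of 10 fell, against 1.05% of all genes. The median log2 fold change of the 10 genes was -0.83 in dKO-19 and -0.70 in dKO-8, against 0.00 over all genes tested in either. SLC38A1 and SLC38A2 were called in neither line, and SLC43A1 likewise.

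Of the light chains and their shared heavy chain, SLC7A11 counted 116, 131 and 123 CPM in the 3 vehicle libraries of dKO-19 and 54.2, 52.4 and 54.0 CPM with SNX631. In dKO-8 it counted 153, 155 and 163 CPM under vehicle and 75.4, 78.4 and 77.8 CPM with SNX631. All treated libraries lay below all vehicle libraries in both lines, and the fold changes were 2.31-fold lower in dKO-19 (log2 -1.21, SE 0.138, FDR 2.24e-08) and 2.04-fold lower in dKO-8 (log2 -1.03, SE 0.131, FDR 4.15e-07). SLC7A5 went from 1043, 949 and 949 CPM to 515, 508 and 504 CPM in dKO-19. In dKO-8 it went from 1050.4, 1042 and 1045 CPM to 600.4, 613 and 607 CPM. The replicates of SLC7A5 were tight and the groups far apart, with a 1.93-fold decrease in dKO-19 (log2 -0.94, FDR 1.33e-20) and a 1.72-fold decrease in dKO-8 (log2 -0.79, FDR 4.76e-17). SLC3A2 went from 457, 435 and 436 CPM to 240.5, 252 and 252 CPM in dKO-19 and from 533, 516 and 515 CPM to 297, 294 and 287 CPM in dKO-8. Its decrease was nearly the same in size in both lines, 1.79-fold in dKO-19 (FDR 1.95e-19) and 1.78-fold in dKO-8 (FDR 6.99e-19).

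Of the transporters of small neutral amino acids, SLC1A5 counted 402, 373 and 378 CPM under vehicle and 193, 200.4 and 206 CPM with SNX631 in dKO-19. In dKO-8 the values were 424, 430.5 and 414 CPM and then 278, 283 and 271 CPM. The glutamine transporter thus fell without overlap in both lines, 1.93-fold in dKO-19 (log2 -0.95, FDR 1.31e-12) and 1.52-fold in dKO-8 (log2 -0.61, FDR 7.32e-08), the second just past the fold limit. SLC1A4 fell 1.78-fold in dKO-19 (71.1, 71.0 and 66.2 CPM to 38.9, 36.5 and 42.0 CPM, FDR 1.26e-09) and 1.77-fold in dKO-8 (98.7, 96.6 and 93.7 CPM to 53.6, 55.6 and 54.0 CPM, FDR 6.76e-10). SLC6A9, the glycine transporter, fell 1.99-fold in dKO-19 (56.3, 52.0 and 51.9 CPM to 25.7, 26.8 and 27.9 CPM, FDR 7.8e-09) and 1.84-fold in dKO-8 (85.5, 82.5 and 82.2 CPM to 42.9, 47.0 and 46.5 CPM, FDR 2.77e-08). For both genes all 3 treated libraries lay below all 3 vehicle libraries. SLC7A1, which carries arginine and lysine, stood at the edge of a call: it was 1.52-fold lower in dKO-19 (log2 -0.60, FDR 3.55e-11), and 1.40-fold lower in dKO-8 (log2 -0.48, FDR 1.87e-08), where it was not called. Without vehicle replicate 1 of dKO-19 its value there was -0.58 and the call was lost.

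SLC38A1 had log2 values of 0.04 (95% interval -0.08 to 0.16) in dKO-19 and -0.07 (-0.19 to 0.05) in dKO-8, so that a decrease of the size seen for SLC7A5 lay outside both intervals. SLC38A2 had -0.13 (-0.23 to -0.03) and -0.18 (-0.28 to -0.08), with all treated libraries below all vehicle libraries in both lines but less than 1.5-fold lower. SLC43A1 was -0.11 (-0.22 to -0.00) in dKO-19 and -0.24 (-0.35 to -0.13) in dKO-8. These 3 genes were thus either near their vehicle level or a little under it.

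In the kinase-dead lines the same treatment gave no call in any of the 10 genes. The share of all genes called either way was 0.015% in dKO-8M and 0.09% in dKO-19M, so calls were rare in both lines whatever the gene. The values were still mostly below 0. The median log2 fold change of the 10 genes was -0.17 in dKO-8M and -0.19 in dKO-19M. In dKO-8M, 8 of 10 genes had an unadjusted p under 0.05 and for 9 of 10 all treated libraries lay below all vehicle libraries. In dKO-19M the counts were 5 and 5, and SLC3A2 (log2 -0.30, FDR 0.000324) and SLC7A5 (log2 -0.25, FDR 0.00362) passed the FDR limit without the fold limit. Without vehicle replicate 1 of dKO-19M, SLC3A2 (-0.26, FDR 0.0166) and SLC7A5 (-0.27, FDR 0.0274) no longer passed the FDR limit. The share of all genes with an unadjusted p under 0.05, or without overlap, was not computed for any comparison. Such counts therefore describe the 10 genes only. At FDR under 0.05 with no fold limit, 97 of all 20009 genes passed in dKO-8M and 484 in dKO-19M. DESeq2's Wald test also called 0 of 10 in each line. SLC7A11 in dKO-8M counted 91.8, 92.3 and 90.8 CPM under vehicle and 73.9, 73.8 and 71.5 CPM with SNX631 (log2 -0.33, FDR 0.383), and in dKO-19M it counted 73.1, 105 and 102 CPM and then 77.0, 84.7 and 81.2 CPM (log2 -0.20, FDR 0.509). In dKO-19M the low vehicle library is replicate 1, which stands apart, and without it the value was -0.35.

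The difference between the effects was tested by interaction terms. Against dKO-8M, the effect in dKO-8 was stronger for 3 of 10 genes, SLC3A2 (log2 difference -0.63, SE 0.0728, FDR 9.11e-09), SLC1A4 (-0.66, SE 0.12, FDR 0.000212) and SLC6A9 (-0.62, SE 0.147, FDR 0.00599), while 0.555% of all genes were called lower. SLC7A11 had a difference of -0.70 but a wider error (SE 0.188, FDR 0.018), and it was called by DESeq2 (-0.69, FDR 0.00379), with no filter on low counts, and with only the groups compared in the fit, while SLC7A5 had one of -0.53 (FDR 9.83e-07), under the fold limit. Against dKO-19M, the effect in dKO-19 was stronger for 5 of 10 genes, where 0.84% of all genes were called lower. They were SLC7A11 (-1.001, FDR 0.000393), SLC7A5 (-0.70, FDR 3.54e-10), SLC1A5 (-0.71, FDR 5.33e-06), SLC1A4 (-0.64, FDR 0.000259) and SLC6A9 (-0.63, FDR 0.00447). Without vehicle replicate 1 of dKO-19M the count was 3, as SLC1A4 (-0.58, FDR 0.00192) and SLC6A9 (-0.59, FDR 0.0129) lost their calls. Leaving out each of the 12 libraries in turn, SLC6A9 kept its call against dKO-8M in 1 case. Between the active lines, no member differed in its response to SNX631 (0 of 10; 0.885% of all genes called either way; 2 at an unadjusted p under 0.05; 0 by DESeq2). The largest value was that of SLC1A5, -0.34 in dKO-19 minus dKO-8 (95% interval -0.55 to -0.13, FDR 0.0535), and that of SLC3A2 was 0.00 (-0.15 to 0.14).

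**Figure D2:**
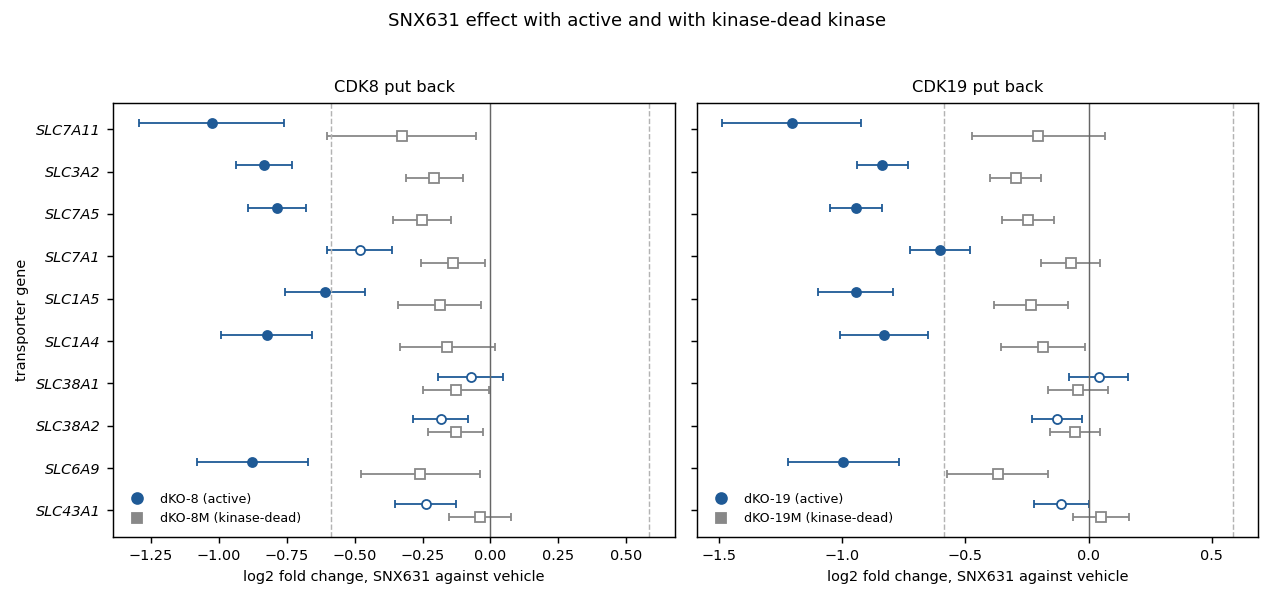
Log2 fold change of each transporter gene with SNX631 against vehicle (x axis) in the lines with an active kinase and in their kinase-dead counterparts, with 95% intervals; filled symbols are called at FDR under 0.01 and over 1.5-fold. SLC7A11, SLC3A2, SLC7A5, SLC1A5, SLC1A4 and SLC6A9 lie well left of 0 in dKO-8 and dKO-19 and nearer to 0 in dKO-8M and dKO-19M, while SLC38A1 and SLC38A2 lie near 0 in all 4 lines.

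In Rv1-WT, which has both kinases of its own, fewer of these genes were called with SNX631. The median of the 10 was -0.11 in FBS and -0.07 in CSS, and in Rv1-Luc it was -0.33 and -0.48. In FBS 0 of 10 were called, against 2.39% of all genes either way, 5 had an unadjusted p under 0.05, and DESeq2 called 0 as well. In CSS 1 of 10 was called, against 1.25% of all genes called lower. The gene was SLC7A11, with 439, 406 and 367 CPM under vehicle and 254, 241 and 256 CPM with SNX631 in CSS, a 1.61-fold decrease without overlap (log2 -0.69, FDR 4.54e-05). In FBS it counted 192, 173 and 186 CPM and then 144, 116 and 125 CPM, again without overlap but 1.42-fold lower (log2 -0.51, FDR 0.006), and it passed the fold limit (-0.60) when SNX631 replicate 1 was left out. SLC7A5 had log2 values of -0.06 (95% interval -0.17 to 0.05) in FBS and -0.07 (-0.18 to 0.03) in CSS. The interaction of SNX631 with medium was called for 0 of 10 genes (0.295% of all genes either way; 1 at an unadjusted p under 0.05; 0 by DESeq2), and the value farthest from 0 was that of SLC38A2 (0.20, FDR 0.123).

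In Rv1-Luc, SLC7A11 was the only transporter called in FBS (1 of 10, against 1.34% of all genes called lower), and 4 of 10 were called in CSS (against 1.61%). In CSS, SLC7A11 counted 101, 95.9 and 96.8 CPM under vehicle and 40.8, 37.1 and 34.6 CPM with SNX631, 2.62-fold lower (log2 -1.39, FDR 2.59e-09). SLC6A9 fell from 43.8, 36.2 and 41.1 CPM to 26.5, 24.6 and 21.0 CPM (log2 -0.75, FDR 3.24e-06). SLC1A5 fell from 267, 260.2 and 254 CPM to 172, 177 and 164 CPM (log2 -0.61, FDR 5.88e-08), and SLC7A5 from 489, 466 and 456 CPM to 318, 306 and 315 CPM (log2 -0.59, FDR 7.27e-13). No library of a treated group reached its vehicle group for these 4 genes, though SLC7A5 and SLC1A5 sat at the fold limit. Leaving out each of the 6 libraries in turn, SLC7A5 kept its call in 4 cases and SLC1A5 in 5, losing it without SNX631 replicate 3. In FBS, SLC7A11 counted 54.0, 103 and 84.0 CPM under vehicle and 36.1, 42.7 and 29.9 CPM with SNX631 (log2 -1.14, FDR 1.55e-07), and the vehicle replicates were widely spread. Without vehicle replicate 1, the library that stands apart, its value was -1.36 and SLC1A4 (-0.66) and SLC6A9 (-0.65) were called as well, 3 of 10 in all. When the fit was limited to the 6 libraries compared, the call of SLC7A11 was lost (-1.15, FDR 0.0891).

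The effect of SNX631 in FBS in Rv1-Luc minus that in Rv1-WT was called for 0 of 10 genes (0.18% of all genes either way; 5 at an unadjusted p under 0.05; 0 by DESeq2). SLC7A5 passed the FDR limit with a difference of -0.35 (FDR 0.00557), and SLC7A11 had -0.63 (FDR 0.104). Without vehicle replicate 1 of Rv1-Luc, SLC7A11 was called at -0.85 (FDR 0.00102), so that this comparison turned on 1 library. Within Rv1-Luc the effect did not differ by medium at the limits of a call (0 of 10; 0.08% of all genes; 4 at an unadjusted p under 0.05; 0 by DESeq2), and the values farthest from 0, those of SLC6A9 (-0.29, FDR 0.614) and SLC1A5 (-0.27, FDR 0.357), were -0.11 and -0.15 without vehicle replicate 1 in FBS. SLC43A1 behaved otherwise than the rest. It was higher with SNX631 in each of the 4 comparisons in Rv1-WT and Rv1-Luc, in all 3 libraries each time, by 0.37 and 0.45 on the log2 scale in Rv1-WT in FBS and CSS (FDR 1.44e-05 and 5.35e-09) and by 0.31 and 0.29 in Rv1-Luc (FDR 1.17e-05 and 8.27e-05), always under the fold limit.

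Comparisons added after the data were seen set the dKO lines against Rv1-WT in FBS. The effect of SNX631 was more negative in dKO-8 for 5 of 10 genes (1.17% of all genes called lower). They were SLC3A2 (-0.69), SLC7A5 (-0.72), SLC1A4 (-0.74), SLC6A9 (-0.68) and SLC43A1 (-0.61). For SLC43A1 the effects had opposite signs, 0.37 in Rv1-WT in FBS and -0.24 in dKO-8, so its effect was not stronger in dKO-8. The count was 3 without SNX631 replicate 1 of Rv1-WT, where SLC6A9 (-0.56) and SLC43A1 lost their calls, and SLC43A1 kept its call in 8 of 12 cases when single libraries were left out. In dKO-19 the effect of SNX631 was more negative for 5 of 10 genes as well (0.94% of all genes called lower). They were SLC3A2 (-0.69), SLC7A5 (-0.88), SLC1A5 (-0.78), SLC1A4 (-0.74) and SLC6A9 (-0.80). Both use the same Rv1-WT libraries. SLC7A11 was called in neither, at -0.52 (FDR 0.0802) and -0.70 (FDR 0.0173), though in dKO-19 it was called by DESeq2 (-0.69, FDR 0.00368), with no filter on low counts and with only the groups compared.

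Androgen depletion was compared next. In Rv1-WT under vehicle, 7 of 10 genes rose in CSS, against 6.09% of all genes called higher, and the median of the 10 was 0.68 on the log2 scale. SLC7A11 counted 192, 173 and 186 CPM in FBS and 439, 406 and 367 CPM in CSS, 2.20-fold higher (log2 1.14, FDR 2.27e-09). SLC6A9 went from 62.3, 51.6 and 52.8 CPM to 119, 124 and 121 CPM, 2.18-fold higher (log2 1.12, FDR 1.09e-11). These were the largest increases among the 10, with all CSS libraries above all FBS libraries. SLC3A2 went from 294, 271 and 287 CPM to 553, 551 and 597 CPM (log2 1.00, FDR 4.78e-23), and SLC7A5 from 506, 461 and 517 CPM to 852, 824 and 871 CPM (log2 0.78, FDR 6.31e-18). SLC1A4 (0.72), SLC7A1 (0.64) and SLC38A2 (0.60) also rose, and SLC38A2 lost its call without vehicle replicate 1 in CSS (0.55). SLC43A1 (0.57), SLC1A5 (0.47) and SLC38A1 (0.45) had all CSS libraries above all FBS libraries but stayed under 1.5-fold, so none of the 10 genes had overlapping groups. The share of all genes without overlap was not computed, and 8983 of all 20009 genes passed FDR under 0.05 with no fold limit here.

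With SNX631 present, 8 of 10 genes rose in CSS in Rv1-WT (against 4.86% of all genes called higher), with a median of 0.75. SLC6A9 (log2 1.17, FDR 9.89e-12), SLC7A11 (0.96, FDR 1.79e-07), SLC3A2 (0.94, FDR 1.06e-21), SLC38A2 (0.80, FDR 2.92e-19), SLC7A5 (0.77), SLC1A4 (0.74), SLC43A1 (0.65) and SLC7A1 (0.64) were called. SLC43A1 lost its call without SNX631 replicate 3 in FBS (0.56) and SLC7A1 without SNX631 replicate 2 in FBS (0.58). SLC1A5 (0.35) and SLC38A1 (0.45) were again under the fold limit with no overlap of groups.

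In Rv1-Luc no transporter was called for CSS against FBS, either under vehicle (0 of 10, against 1.49% of all genes either way; 8 at an unadjusted p under 0.05; 0 by DESeq2) or with SNX631 (0 of 10, against 1.51%; 2 at an unadjusted p under 0.05; 0 by DESeq2). The medians were 0.19 and 0.04, and the first was 0.074 without vehicle replicate 1 in FBS, the library that stands apart. Under vehicle SLC6A9 had the largest value (0.54, 95% interval 0.32 to 0.77), and SLC7A5 counted 366, 455 and 414 CPM in FBS and 489, 466 and 456 CPM in CSS (0.19, 0.09 to 0.30). SLC7A11 had 0.29 (0.02 to 0.56) with overlapping libraries. The values of SLC6A9, SLC7A5 and SLC7A11 were 0.36, 0.11 and 0.069 without vehicle replicate 1 in FBS. The interaction called the CSS effect lower in Rv1-Luc than in Rv1-WT for 4 of 10 genes, while 4.04% of all genes were called lower: SLC7A11 (-0.85, FDR 0.000348), SLC3A2 (-0.82, FDR 2.29e-13), SLC43A1 (-0.70, FDR 8.46e-10) and SLC7A5 (-0.59, FDR 8.03e-09). For SLC43A1 the values had opposite signs, 0.57 in Rv1-WT and -0.13 in Rv1-Luc, and neither was called. SLC1A5 had -0.11 (95% interval -0.32 to 0.10), and -0.24 (FDR 0.0174) without vehicle replicate 1 of Rv1-Luc in FBS, where it was not called either. Without vehicle replicate 1 of Rv1-Luc in FBS the count was 7, with SLC7A1 (-0.59), SLC1A4 (-0.72) and SLC6A9 (-0.76) called in addition and SLC7A11 at -1.07. SLC7A5 was at the fold limit and kept its call in 5 of 12 cases when single libraries were left out.

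**Figure D3:**
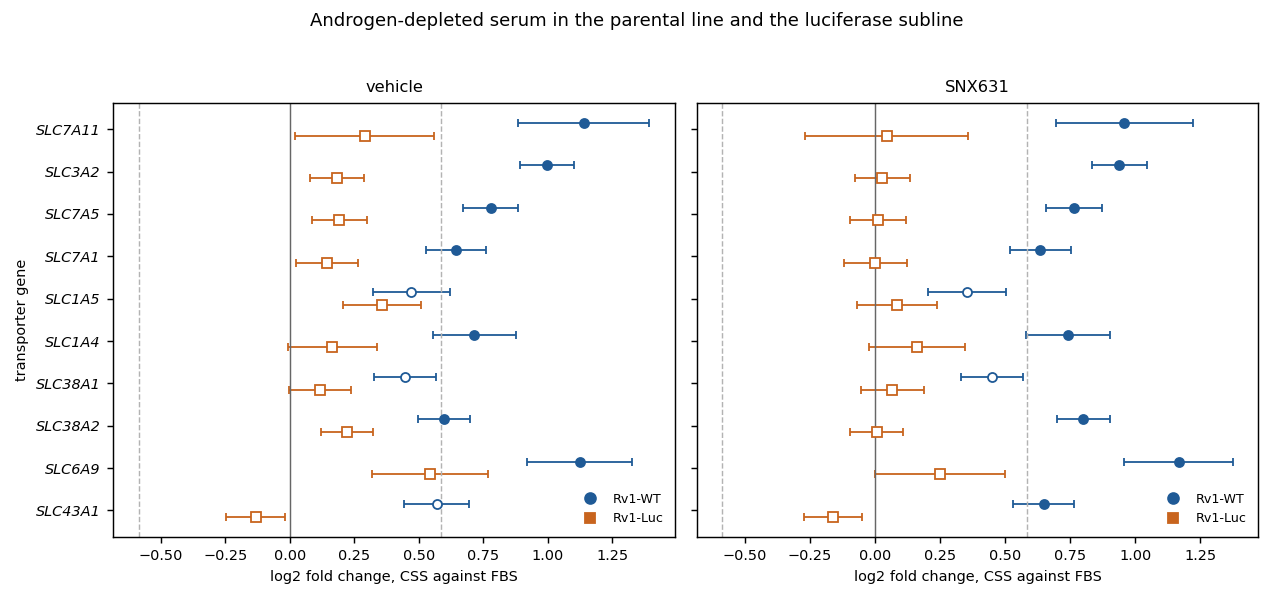
Log2 fold change of each transporter gene in CSS against FBS (x axis) in Rv1-WT and Rv1-Luc, under vehicle and with SNX631, with 95% intervals; filled symbols are called at FDR under 0.01 and over 1.5-fold and dashed lines mark 1.5-fold. All 10 genes in Rv1-WT lie right of 0, between 0.35 and 1.17, and the Rv1-Luc values lie between -0.16 and 0.54 with none called.

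The lines themselves also differed under vehicle. In dKO-8M, 6 of 10 genes were lower than in dKO-8, against 4.07% of all genes called lower, with a median of -0.81. SLC7A5 was 2.09-fold lower, at 492, 508 and 499.8 CPM against 1050.4, 1042 and 1045 CPM (log2 -1.06, FDR 6.22e-23). SLC1A5 was 1.95-fold lower, at 214, 219 and 219 CPM against 424, 430.5 and 414 CPM (log2 -0.96, FDR 3.16e-13). SLC6A9 was 1.94-fold lower, at 43.2, 41.3 and 45.0 CPM against 85.5, 82.5 and 82.2 CPM (log2 -0.95, FDR 1.16e-09). SLC3A2 (-0.89), SLC1A4 (-0.84) and SLC7A11 (-0.78) were the other genes called, and no library of one line reached the other for any of these 6. SLC38A1 (0.07) and SLC38A2 (0.10) were not called, nor were SLC7A1 (-0.36, FDR 3.03e-06) and SLC43A1 (-0.25, FDR 0.000325), which were under the fold limit. The lines also differ in CDK8 RNA and were transduced separately, and kinase activity, transgene level and line cannot be told apart here.

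Between dKO-19M and dKO-19, 0 of 10 genes were called, while 7.6% of all genes were called either way (9 of 10 had an unadjusted p under 0.05; 0 by DESeq2). Of all 20009 genes, 6660 passed FDR under 0.05 with no fold limit. SLC7A5 was nearest to a call, at 652, 681 and 679 CPM in dKO-19M against 1043, 949 and 949 CPM in dKO-19, 1.46-fold lower without overlap (log2 -0.55, 95% interval -0.65 to -0.44, FDR 1.61e-12). SLC43A1 had -0.44 (FDR 1.88e-09), SLC1A5 -0.39 (FDR 5.02e-05), SLC38A1 -0.35 (FDR 8.02e-06) and SLC3A2 -0.33 (FDR 4.06e-07). SLC6A9 went the other way, with 57.6, 64.2 and 60.9 CPM in dKO-19M and 56.3, 52.0 and 51.9 CPM in dKO-19 (log2 0.19, FDR 0.152). Without vehicle replicate 1 of dKO-19M the count stayed at 0, and SLC7A11 moved from -0.40 to -0.26.

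In Rv1-Luc, 5 of 10 genes were lower than in Rv1-WT in FBS under vehicle, against 9.16% of all genes called lower. SLC7A11 counted 54.0, 103 and 84.0 CPM against 192, 173 and 186 CPM, 2.29-fold lower (log2 -1.19, FDR 2.32e-09), and the value without replicate 1 of Rv1-Luc was -0.97. SLC1A4 was 2.04-fold lower (log2 -1.03, FDR 2.78e-13), SLC6A9 2.01-fold lower (-1.004, FDR 1.54e-09), SLC1A5 1.97-fold lower (-0.98, FDR 9.48e-14) and SLC7A1 1.72-fold lower (-0.78, FDR 2.42e-15). SLC7A5 (-0.26), SLC3A2 (-0.36), SLC38A1 (-0.41) and SLC38A2 (-0.41) were lower in every library but under the fold limit, and SLC43A1 was higher in every library (0.42, FDR 5.05e-08). When the fit was limited to the 6 libraries compared, SLC7A11 lost its call (-1.16, FDR 0.0195). Marker lists were summed over all 12 libraries of each line, with both media and both treatments, and not only those compared here. A list of 4 plasma cell markers summed to 1.29 to 20.6 CPM in Rv1-Luc, with 4 of 4 over 3 counts, and to 0 to 0.46 CPM in Rv1-WT, with 1 of 4 over 3 counts and IGKC at 0. The fibroblast list summed to 9.15 to 14.2 CPM in Rv1-Luc and 14.8 to 25.1 CPM in Rv1-WT. The part of these in the difference between Rv1-Luc and Rv1-WT was not tested.

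**Figure D4:**
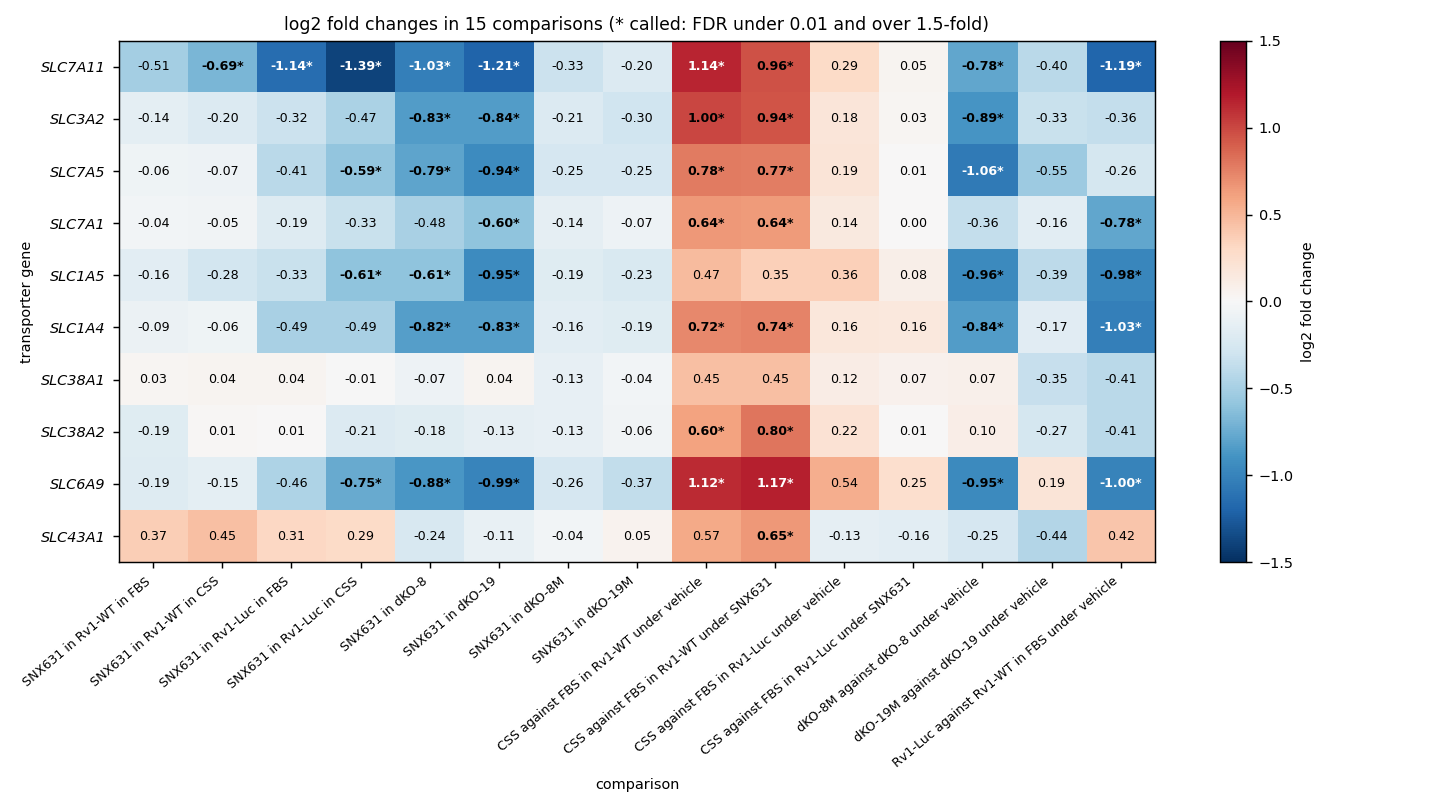
Log2 fold change of the 10 transporter genes (rows) in the 15 comparisons between groups (columns), with color for the value and a mark on those called at FDR under 0.01 and over 1.5-fold. The calls under SNX631 gather in dKO-8 (6 of 10), dKO-19 (7 of 10) and Rv1-Luc in CSS (4 of 10), and those in CSS gather in Rv1-WT (7 and 8 of 10).

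Lists of related genes give the setting for these values. Of 35 other amino acid transporters of the cell membrane, 25 were tested. SNX631 lowered 1 of them in dKO-8 (SLC43A3, -0.60, FDR 0.000829) and 2 in dKO-19 (SLC1A3, -0.95, FDR 3e-13, and SLC43A2, -0.67, FDR 7.35e-07), with medians of -0.07 and -0.16. Over all 20009 genes tested, 211 were called lower in dKO-8 and 307 in dKO-19. In Rv1-WT and Rv1-Luc SNX631 lowered none of the 25 and raised 1 to 3, among them the neutral amino acid transporter SLC7A8 in Rv1-WT in CSS (0.64, FDR 2.7e-07). Over all genes tested, 350 and 595 were called higher in Rv1-WT in FBS and CSS, and 465 and 490 in Rv1-Luc. In CSS in Rv1-WT under vehicle, 1 rose (SLC7A2, 0.81, FDR 1.59e-10) and 5 fell, among them the taurine transporter SLC6A6 (-0.92, FDR 5.39e-12) and SLC7A6 (-0.68, FDR 7.98e-11), with a median of -0.15. The other transporters of the membrane thus had medians on the other side of 0 from the 10 genes in CSS. Over all genes tested, 1218 were called higher and 956 lower in CSS in Rv1-WT under vehicle. In dKO-8M against dKO-8, 1 was higher (SLC1A3, 0.74) and 2 lower (SLC43A3, -2.07, and SLC16A10, -0.97), where 590 of all genes tested were called higher and 815 lower. Of 17 amino acid transporters of lysosome and mitochondrion, 14 were tested, and edgeR called none in any SNX631 or CSS comparison between groups, with 0 (dKO-8M) to 9 (CSS in Rv1-WT) of 14 at an unadjusted p under 0.05.

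Of 35 targets of ATF4 that are not transporters, all 35 were tested. SNX631 lowered 16 of them in dKO-8 (median -0.58) and 16 in dKO-19 (median -0.57), against 0 in dKO-8M (median -0.11, with 12 at an unadjusted p under 0.05) and 2 in dKO-19M (median -0.21). Over all 20009 genes tested, 211 were called lower in dKO-8, 307 in dKO-19, 3 in dKO-8M and 12 in dKO-19M. DDIT3, the stress factor CHOP, was among the genes with the lowest FDR in both active lines (-1.46 in dKO-8, -1.20 in dKO-19), beside the tRNA synthetase SARS1 (-0.69) and the tRNA exporter XPOT (-0.67) in dKO-8, and STC2 (-0.92) and the mitochondrial folate enzyme MTHFD2 (-0.66) in dKO-19. DDIT3 shares reads with another gene and its counts are uncertain. In Rv1-WT, SNX631 lowered 2 of the 35 in FBS and 5 in CSS, while in Rv1-Luc the counts were 4 and 11. Over all genes tested, 129 and 251 were called lower in Rv1-WT, and 269 and 323 in Rv1-Luc. In CSS 23 of the 35 rose in Rv1-WT under vehicle (median 0.79), with DDIT3 (1.63), ATF3 (1.29) and WARS1 (0.99) first by FDR, while none was called in Rv1-Luc under vehicle (median 0.12, with 25 at an unadjusted p under 0.05). In dKO-8M 16 were lower than in dKO-8 (median -0.58), and in dKO-19M 1 was higher and 1 lower than in dKO-19 (median -0.10).

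Of 19 targets of NRF2 that are not transporters, 18 were tested. In the 4 dKO lines edgeR called 0 of 18 with SNX631, and 8 in dKO-8, 7 in dKO-19, 2 in dKO-8M and 4 in dKO-19M had an unadjusted p under 0.05. In Rv1-WT 2 rose with SNX631 in FBS, the aldo-keto reductases AKR1C1 and AKR1C2, and 2 rose in CSS. In Rv1-Luc 2 fell in FBS (GPX2, -0.74, and OSGIN1, -0.71), and 2 rose (AKR1C1 and AKR1C2) and 1 fell (GPX2, -0.80) in CSS. In CSS in Rv1-WT under vehicle 1 rose and 6 fell, among them TXN (-0.97) and PRDX1 (-0.87), while SLC7A11 rose there. Over all 20009 genes tested, 1218 were called higher and 956 lower in that comparison. With SNX631, 350 and 595 were called higher in Rv1-WT in FBS and CSS. In Rv1-Luc 269 were called lower in FBS, and 490 higher and 323 lower in CSS.

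By Pearson's r of log2 CPM over the 16 group means, among 14055 genes with a mean of at least 1 CPM, the gene most like each transporter was found. It was ASNS, asparagine synthetase, for SLC7A11 (r = 0.98), MTHFD2 for SLC7A1 (0.99), ALDH1L2 for SLC1A4 (0.985), CEBPB for SLC6A9 (0.983), YARS1 for SLC3A2 (0.979) and SHMT2 for SLC1A5 (0.967). SLC7A5 was most like SLC3A2, its own heavy chain (0.963). SLC38A1 was most like NRIP1 (0.968), SLC38A2 most like APBB2 (0.957) and SLC43A1 most like PDRG1, with a lower r of 0.839. The groups share lines and treatments, and these values describe these 16 groups. Among the 10 genes, SLC7A1 and SLC1A4 were the most alike pair (r = 0.967), and SLC7A11 and SLC43A1 the least (r = 0.0066).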

How the data were processed

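RNA was sequenced from 48 cultures of human prostate cancer cells, and the groups were taken from the sample titles. The submitters' processing notes name FastQC, cutadapt 2.8, STAR 2.7.2b and featureCounts of Subread 2.0.3 with builds GRCh38.p13 and GRCm39, whose roles are not given. The deposited values are expected counts per gene, made by the authors with reads divided between features, since 81.6% of the nonzero values were whole numbers. They were not scaled for depth. The strand setting is not given in the sources used here.

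Computed here: counts were rounded, 2 transgene entries left out, genes filtered with filterByExpr (minimum count 10, minimum total 15), and scaled by TMM (factors 0.911 to 1.07). All 48 libraries entered 1 fit of edgeR 4.0.16 (quasi-likelihood F-test, robust, 32 residual degrees of freedom, limma 3.58.1, R 4.3.3), adjusted by Benjamini-Hochberg over 20009 genes in each of 22 planned comparisons, 15 between groups and 7 interactions, and 2 added ones. The biological coefficient of variation was 4.2%. Calls needed FDR under 0.01 and over 1.5-fold, the limits of the study. On simulated counts the fit was tested first. The replicates are biological triplicates per the series' design. Counts of the members ran from 443 to 26656 per library. SLC7A5 had fractional counts in 43.8% of libraries, and its near copies SLC7A5P1 and SLC7A5P2 held at most 0.508% of its count.

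Replicate numbers paired the samples in 1 of the 15 group comparisons by the correlation of deviations, SNX631 in dKO-19M (r from 0.186 to 0.454), and with a replicate block the members called there were 0, as without it.

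Named are all members in every comparison, at most 3 list genes with the lowest FDR among those called in a comparison described in full, and the most alike gene by r. The members and lists were chosen with earlier results of these data known. Coordinates are from the annotation of GRCh38 and sequences from RefSeq. Alternatives were DESeq2 1.42.0, other scalings, filters, limits and sample sets, and leaving out each library.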

Additional observations from a re-analysis of the deposited data

Results flagged for a closer look

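Effects of SNX631 or of CSS that differed between lines by the interaction term of edgeR, at FDR under 0.01 and over 1.5-fold, were the following, as log2 differences of effects. In dKO-8 minus dKO-8M the SNX631 effect differed for SLC3A2 (-0.63), SLC1A4 (-0.66) and SLC6A9 (-0.62), the last of which kept its call in 1 of 12 cases when single libraries were left out. In dKO-19 minus dKO-19M it differed for SLC7A11 (-1.001), SLC7A5 (-0.70), SLC1A5 (-0.71), SLC1A4 (-0.64) and SLC6A9 (-0.63), of which SLC1A4 and SLC6A9 lost the call without vehicle replicate 1 of dKO-19M. The CSS effect in Rv1-Luc minus Rv1-WT differed for SLC7A11 (-0.85), SLC3A2 (-0.82), SLC7A5 (-0.59) and SLC43A1 (-0.70). In comparisons added after the data were seen, the SNX631 effect in dKO-8 minus that in Rv1-WT differed for SLC3A2 (-0.69), SLC7A5 (-0.72), SLC1A4 (-0.74), SLC6A9 (-0.68) and SLC43A1 (-0.61), and in dKO-19 minus Rv1-WT for SLC3A2 (-0.69), SLC7A5 (-0.88), SLC1A5 (-0.78), SLC1A4 (-0.74) and SLC6A9 (-0.80). These comparisons share libraries.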

How the results depend on the processing

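The number of transporters called was within 1.5 times the first value in all 24 comparisons under DESeq2 size factors, DESeq2's Wald test, library size alone and the replicate block, which changed no call. With FDR under 0.05 and no fold limit it went from 0 to 3 (SNX631 in Rv1-WT in FBS), 1 to 4 (Rv1-WT, CSS), 1 to 8 (Rv1-Luc, FBS), 4 to 9 (Rv1-Luc, CSS), 0 to 2 (dKO-8M), 0 to 3 (dKO-19M), 0 to 5 and 0 to 1 (CSS in Rv1-Luc, vehicle and SNX631), 0 to 8 (dKO-19M against dKO-19), 5 to 10 (Rv1-Luc against Rv1-WT), 3 to 7 (dKO-8 minus dKO-8M), 0 to 1 (Rv1-Luc minus Rv1-WT), 4 to 9 (CSS, Rv1-Luc minus Rv1-WT) and 5 to 8 (dKO-19 minus Rv1-WT). Calls over all 20009 genes rose under this setting as well. They went from 3558 to 10496 (Rv1-Luc against Rv1-WT), 1520 to 6660 (dKO-19M against dKO-19) and 1731 to 6831 (CSS, Rv1-Luc minus Rv1-WT). For SNX631 they went from 479 to 2893 (Rv1-WT in FBS) and 3 to 97 (dKO-8M). Tested against a 1.5-fold change, it went from 1 to 0 (SNX631 in Rv1-WT, CSS), 4 to 1 (Rv1-Luc, CSS), 6 to 2 (dKO-8), 7 to 4 and 8 to 4 (CSS in Rv1-WT), 3 to 0 and 5 to 0 (dKO-8 minus dKO-8M, dKO-19 minus dKO-19M), 4 to 0 (CSS, Rv1-Luc minus Rv1-WT), and 5 to 0 and 5 to 1 (dKO-8 and dKO-19 minus Rv1-WT). With only the libraries of the groups compared, SNX631 in Rv1-Luc in FBS went from 1 to 0, and with no filter on low counts Rv1-Luc minus Rv1-WT went from 0 to 1 (SLC7A11, -0.62). The cause was not tested.

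Leaving out each library in turn, the counts ran from 0 to 1 (SNX631 in Rv1-WT, FBS), 1 to 3 (Rv1-Luc, FBS), 3 to 4 (Rv1-Luc, CSS), 6 to 6 (dKO-8), 6 to 7 (dKO-19), 6 to 8 and 7 to 8 (CSS in Rv1-WT, vehicle and SNX631), 0 to 1 (CSS in Rv1-Luc, vehicle), 2 to 3 (dKO-8 minus dKO-8M), 3 to 5 (dKO-19 minus dKO-19M), 0 to 1 (Rv1-Luc minus Rv1-WT), 3 to 7 (CSS, Rv1-Luc minus Rv1-WT), 3 to 5 (dKO-8 minus Rv1-WT) and 5 to 6 (dKO-19 minus Rv1-WT). In the comparisons not listed the count did not change. Signs turned in 30 of the values that were not called, 8 of them with a move of over 1 SE. For these 8 the lowest and highest values were -0.14 and 0.0075 (SLC7A5, SNX631 in Rv1-WT in FBS), -0.025 and 0.092 (SLC38A1) and -0.054 and 0.054 (SLC38A2, both SNX631 in Rv1-Luc in FBS), -0.16 and 0.027 (SLC38A1, SNX631 in dKO-19M), -0.0072 and 0.32 (SLC1A4, CSS in Rv1-Luc, vehicle), -0.081 and 0.062 (SLC7A5, SNX631 in CSS minus FBS, Rv1-WT), -0.16 and 0.17 (SLC1A4, SNX631 in CSS minus FBS, Rv1-Luc), and -0.24 and 0.019 (SLC1A5, CSS, Rv1-Luc minus Rv1-WT). With library size alone SLC7A5 in Rv1-Luc in CSS (-0.57) and SLC7A1 in dKO-19 (-0.55) lost their calls, as did SLC6A9 in dKO-8 minus dKO-8M (-0.59) and dKO-19 minus dKO-19M (-0.57), while SLC43A1 for CSS in Rv1-WT (0.63) and SLC1A4 (-0.62) and SLC6A9 (-0.65) for CSS, Rv1-Luc minus Rv1-WT, gained one. DESeq2's Wald test added calls of SLC7A11 in dKO-8 minus dKO-8M (-0.69) and dKO-19 minus Rv1-WT (-0.69) and of SLC6A9 for CSS, Rv1-Luc minus Rv1-WT (-0.59). Under the settings that kept all libraries compared, 12 uncalled values changed sign, none by over 1 SE. Summed with its near copies, SLC7A5 lost its call in Rv1-Luc in CSS (-0.58). Each member held at least 443 counts in each library. How calls change with depth was not tested.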
